A study of Mus musculus with 12 samples.

Results

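Genetic loss of EZH2 was set against chemical inhibition of the same enzyme in mouse neutrophils grown from conditionally immortalised progenitors. The comparison used the 8 neutrophil arrays among the 12 arrays of the series, with 2 arrays in each of 4 groups. HoxB8-ER cells are bone marrow progenitors of C57BL/6 background that carry a hormone-controlled form of HOXB8, joined to the part of the estrogen receptor that binds its ligand. They proliferate as promyelocyte-like cells in 0.5 µM estradiol and differentiate into neutrophils over 6 days once estradiol is removed, and every group compared here carried that fusion. The genotype effect is the level in neutrophils labelled Ezh2-/- minus that in untreated wild-type neutrophils, from Ezh2 null mice and littermate controls. The drug effect is the level in wild-type neutrophils given GSK343 for 9 days minus that in wild-type neutrophils given vehicle. The sample labels give the GSK343 dose as 0.5 µM and the series text as 1 µM, and these sources do not settle which was used. The difference analysed throughout is the genotype effect minus the drug effect, on the log2 scale, for each of 65956 transcript clusters, where a cluster is the array's set of probes for 1 transcribed locus.

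EZH2 carries the methyltransferase activity of PRC2, a Polycomb complex that methylates histone H3 at genes that a cell keeps silent. EZH1 is a related catalytic subunit, and EED and SUZ12 are core subunits that the enzyme needs. GSK343 is a small molecule that competes with the methyl donor S-adenosylmethionine at EZH2, so it blocks methylation while the protein can remain, whereas a null allele removes the protein. Maturing neutrophils fill their granules in sequence: primary granule proteases and myeloperoxidase are made early, secondary granule proteins such as lactoferrin next, and gelatinase granule proteins last, as division stops.

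Secondary granule genes of neutrophils were detected in all 4 groups. Of 14 secondary granule genes, 14 were above background on both arrays of wild-type, vehicle and GSK343 neutrophils, and 13 on both arrays labelled Ezh2-/-. Background was set on each array at the 95th percentile of its antigenomic controls (23 probe sets), and it lay between 4.83 and 5.79 (log2) over the 12 arrays. No member of 13 B, T and NK cell markers was above background on both arrays of any neutrophil group. Markers of other lineages were present. Of 19 monocyte and macrophage markers, 15 were above background on both arrays in wild-type and in vehicle neutrophils. In Ezh2-/- and in GSK343 neutrophils 14 were. Eosinophil, basophil and mast cell markers and erythroid and megakaryocyte markers were detected most often in Ezh2-/- neutrophils. There 16 of 20 eosinophil, basophil and mast cell markers and 16 of 17 erythroid and megakaryocyte markers were above background on both arrays. The counts were 6 and 5 in wild-type, 7 and 4 in vehicle and 9 and 4 in GSK343 neutrophils. Replicate arrays correlated at 0.985 to 0.995 in the 4 groups, and their median absolute gap was 0.18 (log2) in vehicle and 0.28 in wild-type neutrophils. The labels do not say whether the 2 arrays of a group came from separate cultures, mice or lines, so every p-value measures only the spread between arrays, and genotype cannot be told apart from the cell line that carries it. In neutrophils the Ezh2 transcript did not follow the label: its log2 signal was 8.31 and 8.34 in wild-type neutrophils and 8.74 and 9.02 in neutrophils labelled Ezh2-/-. In undifferentiated cells it did, at 11.57 and 11.65 in wild-type and 9.10 and 9.44 in Ezh2-/- cells, an effect of -2.34 (limma adjusted p = 5.5e-05). Where the probes of this cluster lie relative to the deleted part is not given. Genotype directions in neutrophils therefore rest on the label, and Ezh2-/- stands for the arrays so labelled. The untreated and the treated arrays were centred at different levels (median log2 signal 4.54 to 4.65 against 3.88 to 3.96), so levels were compared only within a pair of groups, called a range here. In such bulk RNA, fewer cells of a type and less RNA per cell cannot be told apart.

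The drug effect went mostly the same way as the genotype effect and was much smaller. Over 19354 clusters measured in both ranges (both arrays of at least 1 of the 2 groups above background), the effects correlated at Pearson r = 0.457 and Spearman rho = 0.487, and 67.2% of clusters had the same sign. These clusters share the arrays and overlapping probe content, and the 2 effects share no array. The median absolute change was 0.52 for genotype and 0.22 for the drug (log2), and 23.8% of clusters moved by more than 1 log2 unit with genotype against 2.0% with the drug. The slope of the drug effect on the genotype effect was 0.18. Limma with Benjamini-Hochberg adjustment over all 65956 clusters called 11.8% of them for genotype (6.75% higher, 5.06% lower; 28.7% of those measured in both ranges) and 0.00152% for the drug, which is the single gene Cpa3. At an unadjusted p under 0.05 the drug effect reached 3963 clusters, or 6.01%, of which 2373 were higher (3.6%) and 1590 lower (2.41%). Cpa3 was also the only cluster called in both effects, in the same direction, and none was called in opposite directions.

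**Figure D1:**
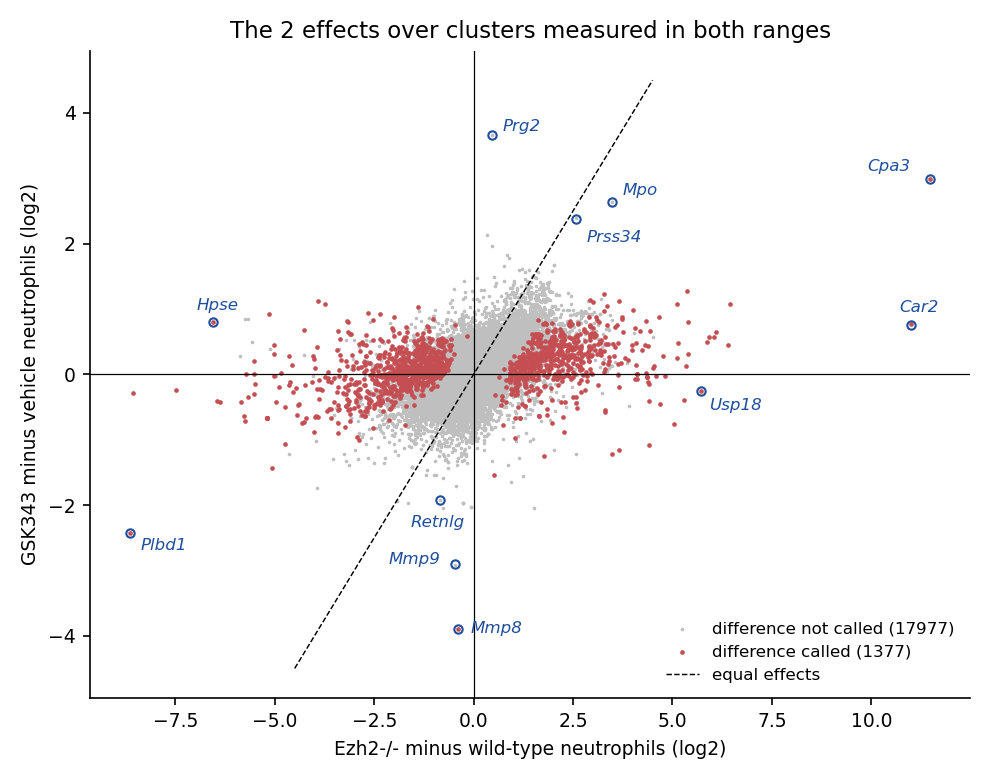
Each point is 1 of the 19354 transcript clusters measured in both ranges, with the genotype effect (log2) on the x axis and the drug effect (log2) on the y axis. Red points are the 1377 clusters whose 2 effects differed (adjusted p under 0.05), the dashed line marks equal effects, and the cloud is far wider along x than along y, with Mmp8, Mmp9 and Prg2 lying near the y axis instead.

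Transcripts that rose in neutrophils labelled Ezh2-/- tended to sit higher with GSK343 as well. Of 2837 clusters called higher for genotype and measured in both ranges, 2029 (71.5%) had both GSK343 arrays above both vehicle arrays and 102 (3.6%) had both below. Over all clusters measured in both ranges those shares were 29.8% and 19.8%. Agreement was weaker among the 2716 clusters called lower, where 937 (34.5%) had both GSK343 arrays below vehicle and 408 (15.0%) had both above. The median drug effect was 0.39 in the first set, where the median genotype effect was 1.29, and -0.11 in the second, where it was -1.23. Read from the drug side, 1028 of 1615 clusters higher with GSK343 at an unadjusted p under 0.05 (63.7%) were called higher for genotype, against 14.7% of all clusters measured in both ranges. Of 600 lower with GSK343 at that p, 201 (33.5%) were called lower for genotype, against 14.0%.

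**Figure D2:**
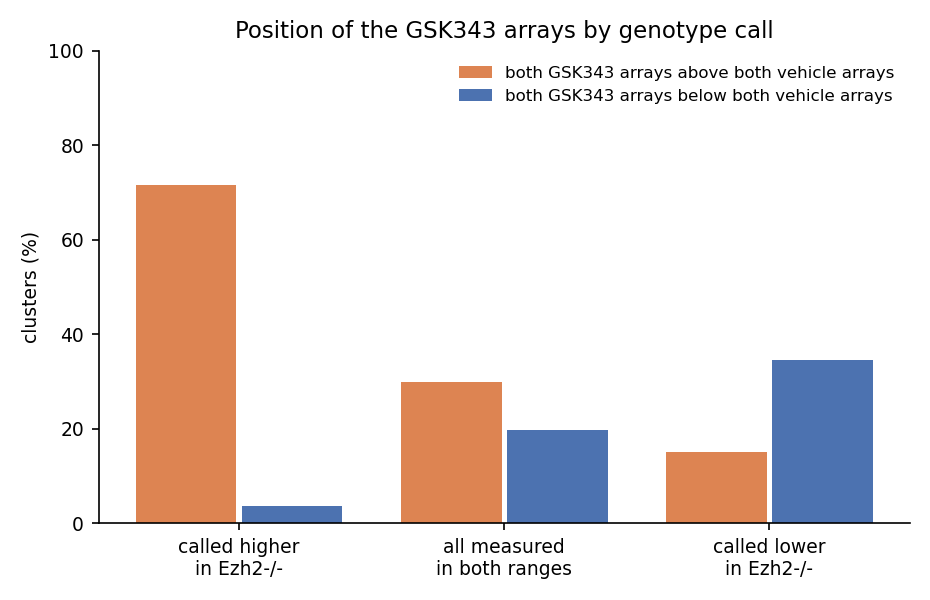
Bars give the percentage of clusters with both GSK343 arrays above (orange) or below (blue) both vehicle arrays, among clusters called higher for genotype (n = 2837), all clusters measured in both ranges (n = 19354) and clusters called lower (n = 2716). The orange bar is highest, at 71.5%, among clusters that rose with genotype, and the blue bar is highest, at 34.5%, among those that fell.

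The 2 effects differed for 2177 clusters, 3.3% of those tested, 1302 of them higher (1.97%) and 875 lower (1.33%). Among clusters measured in both ranges 1377 differed, or 7.11%, with 600 higher (3.1%) and 777 lower (4.01%). In 807 of these 1377 (58.6%) both effects had 1 sign and the genotype effect was larger. In 565 (41.0%) the signs were opposite and the genotype effect was again the larger. The drug effect was the larger in 5: Mmp8, the pseudogene Gm19340, Psmg4 (a proteasome assembly chaperone) and 2 clusters without a gene symbol. The 95% interval of the difference reached a median of 0.76 log2 units to either side, and the smallest called difference was 0.67, so smaller differences were not detectable with 2 arrays a group. Another 563 called clusters were measured only in the genotype range. There 527 were higher and 36 lower, and since the drug arrays lay at background such a cluster shows a genotype effect without bounding a drug effect below background.

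Cpa3 encodes carboxypeptidase A3, a granule protease of mast cells and basophils. Its log2 signal was 7.25 and 8.02 in wild-type and 19.09 and 19.12 in Ezh2-/- neutrophils, and 11.76 and 11.93 with vehicle and 14.88 and 14.79 with GSK343. Each pair of groups was cleanly separated, and the vehicle arrays started above the untreated wild-type ones, although across the ranges these levels are not on a common scale. The genotype effect was 11.47 ± 0.224 (SE, n = 2 arrays a group), or 2830-fold, with limma adjusted p = 1.36e-08. The drug effect was 2.99 ± 0.224, or 7.96-fold (limma adjusted p = 0.0187), and the difference was 8.48 (95% interval 7.76 to 9.19, limma adjusted p = 2.38e-06). The call for the drug effect was lost in 8 of 21 alternative analyses, among them the fit on its own 4 arrays (limma adjusted p = 0.0666) and each fit that left out a GSK343 or vehicle array. Mir7007, a microRNA gene that RefSeq places inside Cpa3, had a genotype effect of 6.04 and a drug effect of 0.57, and its probes cannot be told apart from the Cpa3 transcript here.

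The basophil proteases Prss34 and Mcpt8 also had both GSK343 arrays above vehicle. For the mast cell proteases Tpsb2 and Cma1, described below, the vehicle and GSK343 arrays overlapped near background. Only 1 of 2 arrays of each of those groups was above it, so their drug effect was not measured and the 2 kinds of protease cannot be contrasted here. Prss34 and Mpo were chosen after their values were seen, while Mcpt8 was among the largest differences. Prss34, a basophil serine protease, read 5.28 and 5.89 in wild-type, 8.49 and 7.84 in Ezh2-/-, 6.04 and 6.02 in vehicle and 8.53 and 8.30 in GSK343 neutrophils. In both pairs the groups did not overlap, and the sizes were alike: 2.58 for genotype (limma adjusted p = 0.00102) and 2.38 for the drug (95% interval 1.64 to 3.13, limma adjusted p = 0.166). The difference was 0.20, with a 95% interval of -0.85 to 1.25, so these arrays allow a gap of that size in either direction. Mcpt8, another basophil protease, was not well above background in wild-type neutrophils (4.98 and 5.17) and reached 11.46 and 11.58 in Ezh2-/-, at least 65.2-fold higher. With GSK343 it read 6.50 and 6.54 against 5.55 and 5.35 with vehicle, a drug effect of 1.07 (limma adjusted p = 0.167), and here the 2 effects did differ, by 5.37 (95% interval 4.88 to 5.86, limma adjusted p = 3.87e-06). The 250 bases before the RefSeq start (GRCm38.p6) of these 3 genes are shown because they lay higher in both pairs, and that of Mmp8 because it lay lower with GSK343 without a genotype call. Cpa3 is at chr3:20242182-20242431 (minus strand), Prss34 at chr17:25298144-25298393 (plus), Mcpt8 at chr14:56085198-56085447 (minus) and Mmp8 at chr9:7558179-7558428 (plus). Capitals mark AGATAA, a motif of GATA transcription factors, which was searched as AGATAA and as its reverse complement TTATCT.
Cpa3: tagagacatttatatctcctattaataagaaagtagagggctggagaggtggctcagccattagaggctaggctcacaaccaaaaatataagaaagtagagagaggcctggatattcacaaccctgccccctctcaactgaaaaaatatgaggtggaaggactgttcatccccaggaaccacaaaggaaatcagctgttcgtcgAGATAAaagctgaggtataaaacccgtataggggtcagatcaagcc
Prss34: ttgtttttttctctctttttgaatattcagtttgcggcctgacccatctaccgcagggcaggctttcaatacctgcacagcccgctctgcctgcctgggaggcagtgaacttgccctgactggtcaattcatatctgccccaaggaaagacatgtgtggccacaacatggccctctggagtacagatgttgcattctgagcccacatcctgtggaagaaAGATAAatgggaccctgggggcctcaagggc
Mcpt8: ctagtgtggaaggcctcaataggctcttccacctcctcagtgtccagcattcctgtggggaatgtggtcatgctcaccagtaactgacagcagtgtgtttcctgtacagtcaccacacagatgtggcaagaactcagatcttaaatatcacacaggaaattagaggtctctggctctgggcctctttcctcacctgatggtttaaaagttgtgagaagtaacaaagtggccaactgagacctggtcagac
Mmp8: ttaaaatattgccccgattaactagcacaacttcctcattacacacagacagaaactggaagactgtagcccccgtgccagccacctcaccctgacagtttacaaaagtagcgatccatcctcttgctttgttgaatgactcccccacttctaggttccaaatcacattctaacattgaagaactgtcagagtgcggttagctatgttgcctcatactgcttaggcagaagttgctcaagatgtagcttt
The windows of Cpa3 and Prss34 hold 1 match each, and those of Mcpt8 and Mmp8 hold none on either strand. Over 32851 such RefSeq windows 10.0% hold a match on either strand. All 4 windows have few CpG pairs, between 0 and 4. A match is a string of letters and was not tested as a binding site.

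**Figure D3:**
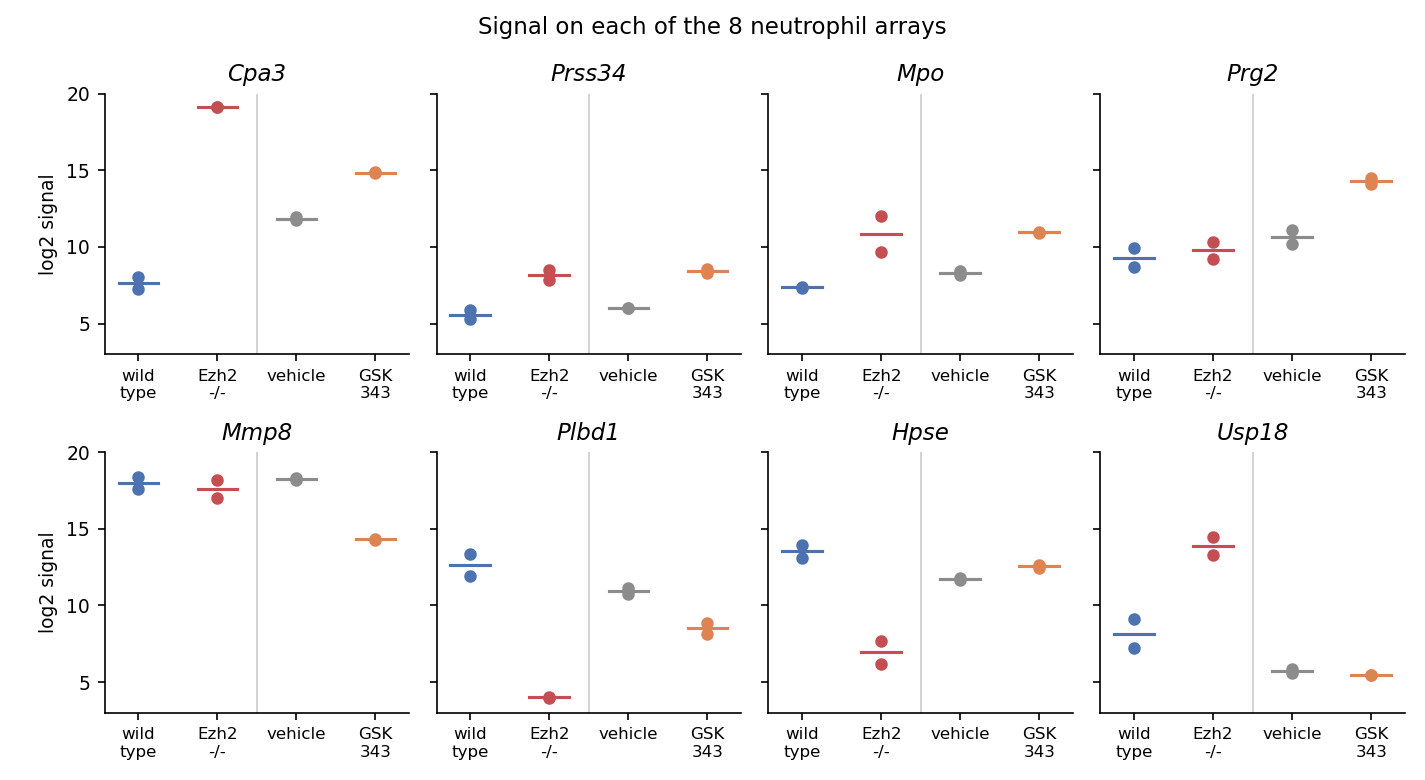
Log2 signal on each of the 8 neutrophil arrays (points) with the group mean (bar) for 8 genes, the grey line separating the genotype range from the drug range. Cpa3, Prss34 and Mpo lie higher in both right-hand groups of each range, Prg2 and Mmp8 move with GSK343, and Hpse and Usp18 move with genotype, while Plbd1 lies lower in both.

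In primary granule genes the median drug effect was larger in size than the median genotype effect. Of 9 members with a cluster, 8 had both GSK343 arrays above vehicle and none below, 2 rose and 1 fell with genotype, and no member's difference was called. The median drug effect was 0.78 and the median genotype effect -0.39, beside 0.00 and -0.03 over all clusters. The median gap between replicates was -0.56 in Ezh2-/- and -0.27 in vehicle neutrophils. Over all clusters 19.5% had both GSK343 arrays above both vehicle arrays and 18.6% both below, while 6.75% rose and 5.06% fell with genotype. Over clusters measured in both ranges those shares were 29.8% and 19.8% for the drug, and 14.7% and 14.0% for genotype. Over 8329 protein-coding genes so measured they were 37.4% and 16.3%, and 16.4% and 19.2%. All these shares are the reference for the list counts below as well. The shares over measured genes are the closer ones for lists whose members were mostly measured in both ranges. Mpo, which encodes myeloperoxidase, read 7.34 and 7.40 in wild-type, 12.03 and 9.66 in Ezh2-/-, 8.44 and 8.17 in vehicle and 10.89 and 10.99 in GSK343 neutrophils. Both pairs were separated, but the Ezh2-/- arrays lay far apart. Its genotype effect was 3.48 (limma adjusted p = 0.0044), its drug effect 2.64 (95% interval 1.33 to 3.95, limma adjusted p = 0.346) and the difference 0.84 (95% interval -1.01 to 2.69). Ctsg (cathepsin G) and Prtn3 (proteinase 3), also chosen after their values were seen, had drug effects of 1.97 and 1.16 and genotype effects of 0.45 and 0.91, none of which was called.

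Cell division genes were higher in both comparisons, several times more with genotype. All 17 DNA replication genes rose with genotype (median 2.55), and in all 17 both GSK343 arrays lay above both vehicle arrays (median drug effect 0.45). Over all clusters those shares were 6.75% and 19.5%, and over clusters measured in both ranges 14.7% and 29.8%. The difference was called higher for 13 of them. Mcm2, a subunit of the replicative helicase, read 7.72 and 8.27 in wild-type, 12.04 and 11.93 in Ezh2-/-, 8.26 and 8.33 in vehicle and 8.71 and 8.77 in GSK343 neutrophils. The groups were separated in both pairs by gaps of very different size. The genotype effect was 3.99 (limma adjusted p = 6.49e-06), the drug effect 0.45 (95% interval -0.01 to 0.91) and the difference 3.55 (95% interval 2.90 to 4.20, limma adjusted p = 0.000296). Cdc6, which loads that helicase, differed by 3.85 and Rrm2, a ribonucleotide reductase subunit, by 2.86 (limma adjusted p = 0.000135 and 0.0146).

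Of 17 mitosis genes 15 rose with genotype (median 2.77), all 17 lay higher on both GSK343 arrays (median 0.73), and the difference was called for 5. Ccna2, the S and G2 phase cyclin A2, read 9.36 and 10.49 in wild-type, 13.40 and 13.76 in Ezh2-/-, 10.95 and 11.15 in vehicle and 12.32 and 12.04 in GSK343 neutrophils. The pairs did not overlap, with a genotype effect of 3.66 and a drug effect of 1.13 (95% interval 0.22 to 2.04). Its difference of 2.53 had a limma adjusted p of 0.0482 and lost its call in 13 of 20 alternatives. The proliferation marker Mki67 and the topoisomerase Top2a differed by 2.44 and 2.27 (limma adjusted p = 0.0287 and 0.0346), calls lost in 9 and 10 of 20 alternatives. The mitosis genes also differed between the 2 wild-type arrays, by a median of 0.75, which is as large as their median drug effect, whereas the vehicle arrays differed by 0.17 and the GSK343 arrays by 0.02.

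Ribosomal protein genes agreed in direction and the sizes were closer. Of 10 cytosolic ribosomal protein genes 7 rose with genotype (median 0.95), 9 lay higher on both GSK343 arrays (median 0.50), and no difference was called. Rplp0, a ribosomal stalk protein chosen after its values were seen, read 11.54 and 11.73 in wild-type, 13.05 and 13.05 in Ezh2-/-, 10.53 and 10.45 in vehicle and 11.32 and 11.14 in GSK343 neutrophils. Both pairs were separated, with effects of 1.41 (limma adjusted p = 0.000148) and 0.75 (limma adjusted p = 0.234) and a difference of 0.67 (95% interval 0.27 to 1.07, limma adjusted p = 0.0931). Clusters annotated as pseudogenes had the highest agreement of the annotation classes, with r = 0.563 over 1848 clusters against 0.404 over 8329 protein-coding ones. Among 174 pseudogenes named after ribosomal proteins, 150 rose with genotype and 164 (94.3%) lay higher on both GSK343 arrays, with medians of 1.27 and 0.69. Such copies can share sequence with their parent genes, and how far their probes read the parents was not tested. The pseudogenes Gm10059, Gm7079 and Gm20620, which stood among the lowest drug p-values, had drug effects of 1.25, 1.20 and 1.33 (limma adjusted p = 0.0537, 0.0537 and 0.0563) and genotype effects of 0.81, 0.69 and 0.91 that were called. In these 3 the drug effect was the larger value, although none of the differences was called.

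Late neutrophil genes were not uniform: some were lower in both comparisons and some in 1 of them. Hpse and Wfdc21, members of this list given below, fell with genotype and had drug effects of 0.80 and 0.14. Of 9 gelatinase granule and late genes, 5 fell with genotype and 5 lay lower on both GSK343 arrays, with medians of -1.40 and -1.22. The median gap between replicates in this list was -1.12 in wild-type and -0.59 in Ezh2-/- neutrophils. The first is close in size to the median genotype effect. Plbd1, a phospholipase B-like granule protein, read 13.32 and 11.94 in wild-type neutrophils and was not well above background in Ezh2-/- (4.02 and 3.98), at least 155-fold lower. It read 11.11 and 10.75 with vehicle and 8.13 and 8.86 with GSK343, again without overlap. The drug effect was -2.43 (95% interval -3.31 to -1.55, limma adjusted p = 0.234), the genotype effect -8.63 (limma adjusted p = 2.94e-06) and the difference -6.20 (95% interval -7.45 to -4.95, limma adjusted p = 0.000488). Padi4, which citrullinates histones during extracellular trap release, fell with genotype by 3.25 and had a drug effect of -1.22. Olfm4, a granule glycoprotein counted in the secondary granule list, fell by 2.67 and had a drug effect of -1.28. Neither difference was called (limma adjusted p = 0.16 and 0.388).

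Mmp8 and Mmp9 encode neutrophil collagenase and gelatinase, and both were lower with GSK343 and not called for genotype. Mmp8 read 18.35 and 17.57 in wild-type, 18.16 and 16.97 in Ezh2-/-, 18.29 and 18.16 in vehicle and 14.28 and 14.36 in GSK343 neutrophils. The genotype groups overlapped and the drug groups lay far apart. The drug effect was -3.90 (95% interval -4.98 to -2.82, 15.0-fold lower, limma adjusted p = 0.119), the genotype effect -0.39 (limma adjusted p = 0.744) and the difference 3.51 (95% interval 1.98 to 5.04, limma adjusted p = 0.0252). That call was lost in 7 of 20 alternatives, among them quantile normalization, which brought the difference to 2.27 (limma adjusted p = 0.263), and leaving out either GSK343 array (limma adjusted p = 0.0925 and 0.0877) or either vehicle array (0.0984 and 0.0965). Mmp9 read 16.66 and 15.57, 16.05 and 15.24, 15.68 and 15.31, and 12.21 and 12.96 in the same order of groups. The genotype groups overlapped and the drug groups did not, with a drug effect of -2.91 (7.52-fold lower, limma adjusted p = 0.166) and a difference of 2.44 (95% interval 1.15 to 3.73, limma adjusted p = 0.0573). Retnlg, a resistin-like protein of neutrophils, read 18.14 and 18.29 with vehicle and 16.19 and 16.41 with GSK343 (drug effect -1.92), and its genotype effect was -0.85. Its difference of 1.07 was not called (limma adjusted p = 0.328).

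Secondary granule genes fell with genotype more than with the drug by the median, at -1.96 against -0.27. For genotype 9 of 14 were called lower. None was called for the drug, where Cpa3 was the only call over all clusters. Both GSK343 arrays lay lower for 8 members. The median gap between replicates in this list was -0.75 in wild-type neutrophils. In GSK343 neutrophils it was 0.39, larger in size than the median drug effect. Camp, the precursor of the antimicrobial peptide cathelicidin, read 15.31 and 13.89 in wild-type, 9.63 and 10.11 in Ezh2-/-, 15.19 and 15.30 in vehicle and 14.82 and 14.68 in GSK343 neutrophils. Neither pair of groups overlapped, and the step was far larger with genotype. The effects were -4.74 and -0.50, and they differed by -4.24 (95% interval -5.50 to -2.98, limma adjusted p = 0.00377). Cd177, a neutrophil surface glycoprotein, differed by -4.26 (limma adjusted p = 0.00734). Wfdc21, a whey acidic protein family member from the late neutrophil list, differed by -4.71 (limma adjusted p = 0.00135). Hpse, which encodes heparanase, also belongs to the late neutrophil list. It read 13.12 and 13.91 in wild-type, 6.21 and 7.70 in Ezh2-/-, 11.80 and 11.67 in vehicle and 12.66 and 12.43 in GSK343 neutrophils. It lay lower in Ezh2-/- and higher with GSK343, and its difference of -7.36 (95% interval -8.74 to -5.98, limma adjusted p = 0.000337) was the most negative among genes with 1 symbol measured in both ranges. The brightest genes met a ceiling on the treated arrays: 92 clusters shared the maximum of 19.40 on the first GSK343 array, and 21 shared the maximum of 19.93 on each of the others. Drug effects of Ltf, Lcn2, Ngp and Chil3 (-0.29, -0.27, -0.28 and -0.27) lie in that zone, where 41 of the 140 clusters above 19 on the first vehicle array read the same, within 0.005, on both vehicle arrays and the second GSK343 array and the first GSK343 array differed from the first vehicle array by a median of -0.53.

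Epx and Prg2, genes of eosinophil granules, lay higher with GSK343 and were not called for genotype. Epx, eosinophil peroxidase, was not well above background in wild-type (4.02 and 4.60), Ezh2-/- (3.80 and 3.63) or vehicle neutrophils (4.79 and 4.64) and read 6.78 and 7.32 with GSK343. That is at least 3.98-fold higher than vehicle (drug effect 2.33, limma adjusted p = 0.0537). The fitted difference was -2.93 (95% interval -3.63 to -2.23, limma adjusted p = 0.00124), with the genotype side at background. Prg2, the eosinophil major basic protein, chosen after its values were seen, read 8.68 and 9.90 in wild-type, 10.33 and 9.20 in Ezh2-/-, 11.08 and 10.22 in vehicle and 14.51 and 14.12 in GSK343 neutrophils. Only the drug groups were separated, with a drug effect of 3.66 (95% interval 2.47 to 4.85, 12.7-fold, limma adjusted p = 0.169) and a difference of -3.19 (95% interval -4.87 to -1.51, limma adjusted p = 0.0568). Ear-ps9, an eosinophil-associated ribonuclease pseudogene, was not well above background in wild-type or vehicle neutrophils. It lay at least 1.42-fold higher in Ezh2-/- (fitted effect 1.13, limma adjusted p = 0.00179). With GSK343 it lay at least 1.36-fold higher (fitted effect 1.59, limma adjusted p = 0.0537). Siglecf, an eosinophil surface lectin, was not higher with GSK343 (drug effect -0.60), and Il5ra, the interleukin-5 receptor chain, was not well above background on any of the 8 arrays.

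Mast cell, basophil and erythroid genes held the most positive differences named here. Of 20 eosinophil, basophil and mast cell markers, 17 rose with genotype, 11 lay higher on both GSK343 arrays and the difference was called higher for 12 and lower for 1. Their summed signal was 13.80 and 12.52 (log2) in wild-type, 19.41 and 19.47 in Ezh2-/-, 13.94 and 13.81 in vehicle and 15.87 and 15.70 in GSK343 neutrophils, and 6, 16, 7 and 9 of the 20 were above background on both arrays of those groups. The part of these marker transcripts in the other differences was not tested. Tpsb2, a mast cell tryptase, was not well above background in wild-type neutrophils (4.59 and 4.36) and read 16.44 and 16.45 in Ezh2-/-, at least 1990-fold higher. With vehicle it read 5.35 and 4.93 and with GSK343 5.14 and 5.87, which overlap, and the difference was 11.61 (95% interval 10.69 to 12.53, limma adjusted p = 1.63e-06). Cma1, mast cell chymase, differed by 8.21, and the drug effect was 0.03 with levels near background.

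Kit, the stem cell factor receptor, and Gata2, a transcription factor of mast cells and progenitors, rose by 5.35 and 4.15 with genotype. Kit had a drug effect of 0.13. Gata2 was not above background on any vehicle or GSK343 array (4.52 to 4.67), so its drug effect was not measured. The fitted difference was called for both genes (limma adjusted p = 0.000104 and 0.00148). Bcl11a, a transcription factor of progenitors and lymphoid cells, was above background only in Ezh2-/- neutrophils and differed by 3.82. Of 19 stem and progenitor regulators the difference was called higher for 7 and lower for 1.

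Of 17 erythroid and megakaryocyte markers 13 rose with genotype, and 12 were measured only in the genotype range. Their summed signal was 10.85 and 12.49 in wild-type, 17.68 and 17.89 in Ezh2-/-, 10.03 and 10.06 in vehicle and 10.64 and 10.37 in GSK343 neutrophils. Only the Ezh2-/- pair stood out. Car2, carbonic anhydrase 2, read 6.10 and 6.17 in wild-type, 17.06 and 17.23 in Ezh2-/-, 6.58 and 6.70 in vehicle and 7.64 and 7.16 in GSK343 neutrophils. The groups were separated in both pairs, and the difference of 10.24 (95% interval 9.64 to 10.85, limma adjusted p = 2.51e-07) was the most positive among genes with 1 symbol measured in both ranges. Rhag, an erythroid membrane protein, and Aqp1, the red cell water channel, were above background only in Ezh2-/- neutrophils and differed by 10.26 and 9.52. Cpox, an enzyme of haem synthesis, rose by 6.39 with genotype against 0.45 with the drug.

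Interferon-stimulated genes rose with genotype, without a matching rise with GSK343. Of 22 genes, 19 rose with genotype and none fell (median 2.55). With GSK343 2 lay higher and 8 lower on both arrays (median -0.19), and the difference was called higher for 13. No member reached an unadjusted p of 0.05 for the drug, and the median gap between replicates was -0.31 for vehicle and 0.29 for GSK343, larger than the median drug effect. Usp18, a protease that removes ISG15, read 7.22 and 9.11 in wild-type, 13.26 and 14.48 in Ezh2-/-, 5.85 and 5.58 in vehicle and 5.45 and 5.45 in GSK343 neutrophils. The genotype groups lay far apart and the drug groups close together, with a difference of 5.97 (95% interval 4.03 to 7.91, limma adjusted p = 0.00614). Rsad2 (viperin) and Ifit1, both antiviral effectors, differed by 5.68 and 5.63 (limma adjusted p = 0.00419 and 0.00131), and Slfn1, a Schlafen family gene, by 5.80 (limma adjusted p = 5.86e-06). Ifit1 was not above background on any vehicle or GSK343 array, so its drug effect was not measured. Slfn1 read 5.98 and 5.93 with vehicle and 5.00 and 5.39 with GSK343. The 2 wild-type arrays differed in this list by a median of 1.34, so the genotype effect was measured against an uneven control.

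Monocyte and macrophage genes had a median genotype effect of -1.48 and a median drug effect of 0.40. The median gap between replicates in this list was 1.30 in wild-type and -0.37 in vehicle neutrophils, close to the sizes of those effects. Of 19 markers, 6 fell and 1 rose with genotype, 12 lay higher on both GSK343 arrays and 1 lower, and the difference was called lower for 2. Their summed signal was 18.14 and 18.53 in wild-type, 16.74 and 17.03 in Ezh2-/-, 18.81 and 18.33 in vehicle and 19.05 and 19.01 in GSK343 neutrophils. Mertk, a receptor for apoptotic cell uptake, read 9.31 and 10.74, 7.59 and 6.70, 8.47 and 8.11, and 8.20 and 8.15 in the same order, and differed by -2.77 (limma adjusted p = 0.0405), a call lost in 10 of 20 alternatives, among them the fit on the 8 neutrophil arrays (limma adjusted p = 0.0729). The complement gene C1qc differed by -1.65 (limma adjusted p = 0.0229). Maf, a transcription factor of macrophages, read 12.39 and 14.51 in wild-type and 7.56 and 7.88 in Ezh2-/-, and was level between vehicle (10.29 and 10.02) and GSK343 (10.18 and 10.13). Its difference of -5.73 was called (limma adjusted p = 0.00393). Pla2g7, a phospholipase of macrophages, fell by 5.16 with genotype and lay 0.92 higher with GSK343, a difference of -6.07 (limma adjusted p = 5.04e-05). Lrg1, a secreted glycoprotein stored in neutrophil granules, differed by -5.73 (limma adjusted p = 0.00624).

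Part of the receptor and oxidase genes fell with genotype. None was called for the drug, but Cpa3 was the only drug call over all clusters, so that says little about these genes. Of 21 innate recognition receptors 10 fell and 2 rose with genotype (median -1.23), against 5 lower and 3 higher on both GSK343 arrays (median 0.06). Over all clusters 18.6% lay lower and 19.5% higher on both GSK343 arrays. Of these receptors 19 were measured in both ranges, and over all clusters so measured the shares were 19.8% lower and 29.8% higher. Against the second pair of shares, few receptors lay higher, which was not tested. The toll-like receptors Tlr7, Tlr4 and Tlr8 differed by -2.96, -2.59 and -2.26 (limma adjusted p = 0.000488, 0.0272 and 0.00216). The call of Tlr4 was lost in 9 of 20 alternatives, quantile normalization among them (limma adjusted p = 0.0574), and those of Tlr7 and Tlr8 in none. Tlr7 read 13.51 and 13.69 in wild-type, 10.87 and 10.79 in Ezh2-/-, 12.71 and 12.85 in vehicle and 13.11 and 12.84 in GSK343 neutrophils, separated only by genotype. Of 11 chemotactic and growth factor receptors 4 fell with genotype (median -1.05), and 5 lay lower and 0 higher on both GSK343 arrays (median -0.25). The median gap between replicates in this list was -0.6 in wild-type, -0.69 in Ezh2-/-, -0.21 in vehicle and 0.25 in GSK343 neutrophils. Il1r2, the decoy receptor for interleukin-1, differed by -3.48 (limma adjusted p = 0.0382), a call lost in 11 of 20 alternatives, among them the fit on the 8 neutrophil arrays (limma adjusted p = 0.0638). Cybb, the catalytic subunit of the phagocyte NADPH oxidase, and Hvcn1, the proton channel that balances its charge, differed by -2.26 and -1.78 (limma adjusted p = 0.00582 and 0.0223), and 2 of 6 oxidase genes fell with genotype.

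Among the Polycomb genes the Ezh2 transcript itself lay slightly higher in both: it read 8.78 and 9.02 with vehicle and 9.33 and 9.28 with GSK343. Its effects were 0.55 with genotype (limma adjusted p = 0.0501) and 0.41 with the drug (limma adjusted p = 0.736), with a difference of 0.15 (95% interval -0.35 to 0.64). Ezh1 fell with genotype by 1.22 and had a drug effect of -0.36, and the difference of -0.86 was not called (limma adjusted p = 0.186). Suz12 rose by 1.10 with genotype, and the GSK343 arrays (9.83 and 10.11) overlapped vehicle (9.89 and 10.13), a difference of 1.14 (limma adjusted p = 0.0133). Eed had effects of 0.36 and -0.12, with a difference of 0.48 that was not called. The accessory subunit Phf1 differed by -1.88 (limma adjusted p = 0.0232), and the PRC1 subunit Bmi1 by 2.16 (limma adjusted p = 0.00156). Arid1b, a subunit of the SWI/SNF remodeller that opposes Polycomb, differed by -1.58 (limma adjusted p = 0.00861).

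Developmental regulators, a textbook class of Polycomb targets, were mostly not well above background. Of 50 developmental transcription factor genes 46 were measured in neither range, as were 31 of 33 HOX genes. Tbx15, a T-box factor, was not well above background in wild-type neutrophils and read 8.97 and 8.52 in Ezh2-/-, at least 9.54-fold higher, while the drug arrays lay at background (3.66 to 3.72). Hoxc4 was likewise above background only in Ezh2-/- neutrophils, at least 1.93-fold higher. Cdkn2a, the locus of the INK4A and ARF inhibitors of the cell cycle, read 7.53 and 6.96 in wild-type and 9.35 and 9.84 in Ezh2-/- and was not well above background with vehicle or GSK343, a fitted difference of 2.58 (limma adjusted p = 0.00231). Cdkn1a, which encodes the CDK inhibitor p21, read 12.09 and 13.52 in wild-type, 8.74 and 8.33 in Ezh2-/-, 10.58 and 10.10 in vehicle and 11.08 and 10.97 in GSK343 neutrophils. It fell with genotype and lay higher with GSK343, a difference of -4.95 (95% interval -6.96 to -2.94, limma adjusted p = 0.0185). The fetal RNA-binding gene Lin28b and the dendritic cell factor Zbtb46 had fitted differences of 1.29 and 1.52 while neither was measured in a range. The quinone reductase Nqo1 had a fitted difference of 3.27 and was above background only in Ezh2-/- neutrophils.

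Most of the remaining genes named by rule were non-coding. The long non-coding RNA Gm10825 and the pseudogenes Gm1972 and Gm16531, which RefSeq places near each other on 1 chromosome, fell with genotype by 7.49, 6.46 and 6.38, with drug effects of -0.25, -0.40 and -0.42. Gm10825 read 16.01 and 15.61 in wild-type, 8.96 and 7.67 in Ezh2-/-, 15.72 and 15.63 in vehicle and 15.45 and 15.41 in GSK343 neutrophils, a difference of -7.25 (limma adjusted p = 0.000893). The 3 profiles ran in parallel, and whether their probes share sequence was not tested. Gm19340 read 8.47 and 8.28 in wild-type, 8.87 and 8.90 in Ezh2-/-, 5.88 and 5.88 in vehicle and 4.30 and 4.38 in GSK343 neutrophils, not well above background in the last. Its difference of 2.05 was called (limma adjusted p = 0.00145). Olfr769, an olfactory receptor gene, had a drug effect of -0.70 and was not well above background on any of the 8 arrays.

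**Figure D4:**
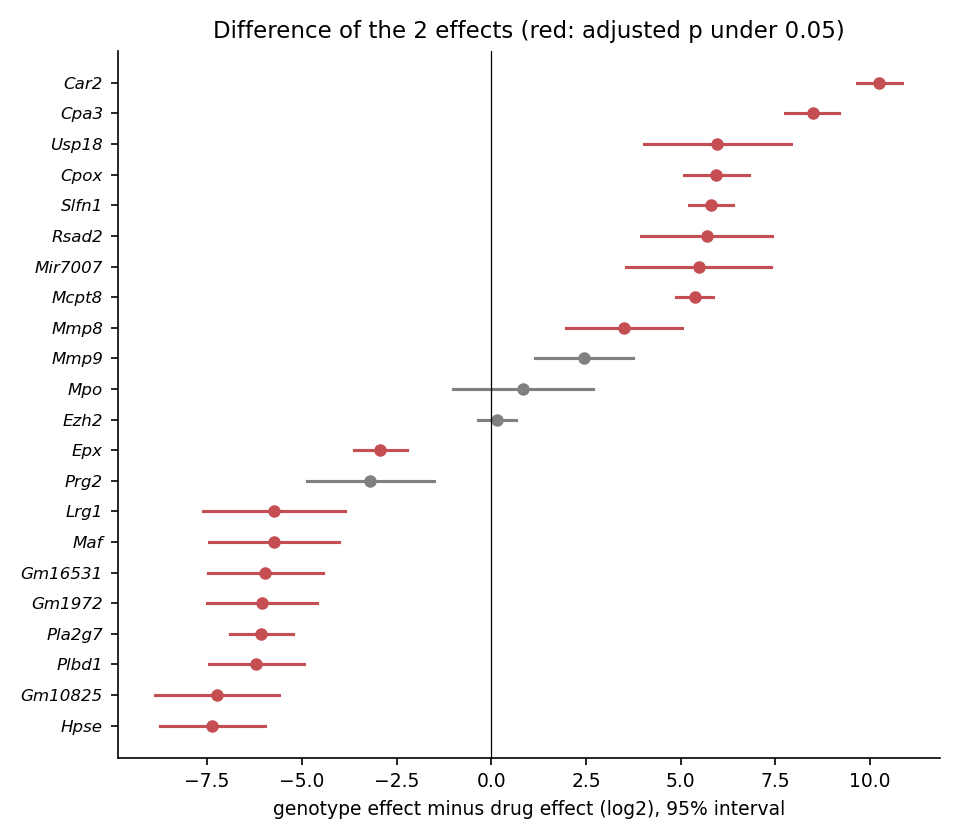
Points give the genotype effect minus the drug effect (log2) and bars its 95% interval for 22 genes, red where the adjusted p was under 0.05. Car2 at 10.24 and Hpse at -7.36 mark the ends, Mpo and Ezh2 have intervals that include 0, and Mmp8 and Epx are called with the drug effect as the larger one.

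Several lists showed few calls. Of 17 cholesterol synthesis and uptake genes none was called in either effect or in the difference, with medians of -0.10 for genotype and -0.07 for the drug. In 20 inflammatory genes 4 rose with genotype, 10 lay lower and 4 higher on both GSK343 arrays, and no difference was called. For 7 S100 and stefin genes no call was made in any of the contrasts. Of 14 stress response genes 8 lay higher on both GSK343 arrays and none lower, while 3 rose and 1 fell with genotype. Over all clusters 19.5% lay higher and 18.6% lower on both GSK343 arrays, and over clusters measured in both ranges 29.8% and 19.8%.

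**Figure D5:**
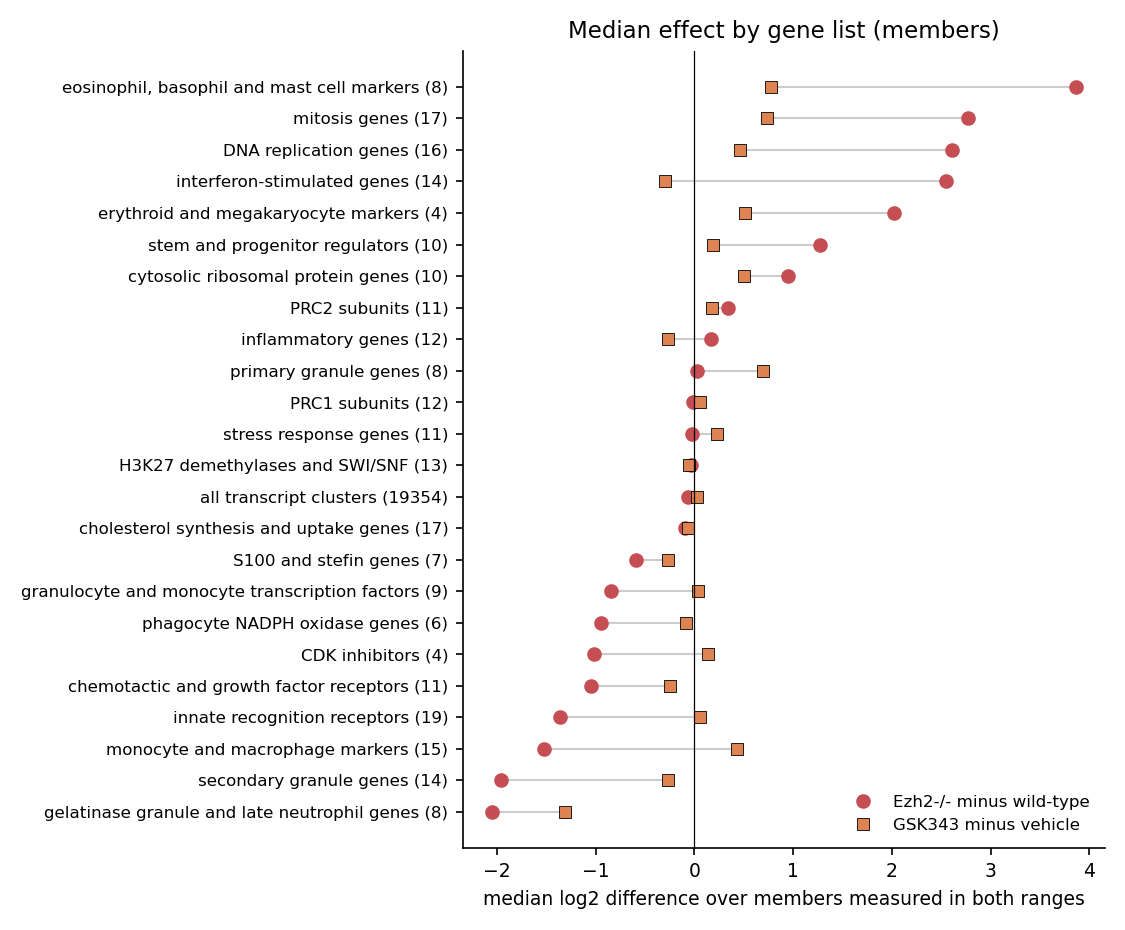
Median genotype effect (red circles) and median drug effect (orange squares) in log2 units over the members of each gene list measured in both ranges, with their number in parentheses. Mitosis (2.77 and 0.73) and DNA replication genes lie right of 0 for both effects, late neutrophil genes left of 0 for both, and interferon-stimulated, monocyte and macrophage and inflammatory genes on opposite sides.

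Promoters of shared and unshared genes were compared by CpG content, as the ratio of observed to expected CpG pairs in the 250 bases before each RefSeq start. Where a gene had several starts, the window with the highest ratio stood for it. Of 8329 protein-coding genes measured in both ranges 6933 (83.2%) had a window, and 75.1% of these exceeded a ratio of 0.6. The share was 82.6% over 801 genes that rose with genotype and lay higher on both GSK343 arrays, and 63.6% over 376 that fell with genotype and lay lower on both. It was 77.3% where the difference was called higher and 56.9% where it was called lower. These shares describe the sets and carry no test.

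The drug effect was closer to the genotype effect in neutrophils than to the genotype effect in undifferentiated cells. Over 18033 clusters measured in all 3 comparisons, it correlated at 0.464 with the first and 0.187 with the second, and the 2 genotype effects correlated at 0.385 with each other. None of these 3 comparisons shares an array with another. The Ezh2-/- undifferentiated arrays had the widest replicate gap of all groups (median 0.41, with 14.8% of clusters over 1 log2 unit apart). In wild-type neutrophils, the widest of the neutrophil groups, these values were 0.28 and 5.4%. How far that spread lowered the correlations with the undifferentiated effect was not tested. Undifferentiated cells were kept in estradiol and were not given GSK343.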

How the data were processed

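The series text states that 250 ng of RNA from each of 12 samples went onto the GeneChip Mouse Transcriptome Array 1.0. Values were deposited by the authors on the log2 scale, 1 signal for each cluster and array, from Affymetrix Expression Console and Transcriptome Analysis Console per the submitters' processing notes. How these programs summarised, corrected and normalized the signal, and on which build, is not stated in these sources. Of 72688 entries 6732 control probe sets were left out, and 31216 of the 65956 clusters had 1 gene symbol through the platform annotation, 1534 had several and 33206 had none. Symbols were updated through Entrez identifiers for 23430 clusters, and the cluster with the highest mean stood for a gene.

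Group means of all 6 groups were fitted with limma 3.58.1 in R 4.3.3 (lmFit, eBayes), so that all arrays share an estimate of the spread. P-values were adjusted by Benjamini-Hochberg over all clusters, and a call is an adjusted p under 0.05. The fitting code was tested on simulated data. Where a group was not well above background, a fold is a lower bound against the background level of its arrays. Genes were named by rule: called in both effects, or among the 8 most positive and 8 most negative differences. Also named were the 6 genes each way with the lowest unadjusted p for the drug, which are not the 6 largest drug effects. Up to 3 differences of each of 29 lists, and Ezh2, Ezh1, Eed and Suz12, completed the rule. Members and lists were chosen with earlier results of these data known. Alternatives covered normalization, filters, variance model, samples fitted, pairing and left-out arrays. Promoter windows came from RefSeq (GRCm38.p6).

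Replicate numbers were checked as pairs. Deviations of same-numbered arrays from their group means correlated at 0.281 for wild-type and Ezh2-/- and at -0.24 for vehicle and GSK343 neutrophils (24209 clusters), and the labels do not say that a number marks a shared culture.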

Additional observations from a re-analysis of the deposited data

Results flagged for a closer look

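These results stood out because the genotype effect and the drug effect differed by a test of the difference itself, in limma with adjustment over all clusters. That difference was called for 2177 clusters. Mmp8, neutrophil collagenase, differed by 3.51 (log2), being lower with GSK343 and not called for genotype. Epx, eosinophil peroxidase, differed by -2.93, being above background only with GSK343. No group held enough arrays for a check of single outlying arrays.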

How the results depend on the processing

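With 2 arrays a group, the drug effect and everything that needs a drug call rested on few values. Its count of 1 became 8 after median centring, 9 over clusters with 1 symbol, 3 after quantile normalization and 3 with a trended robust variance, 2 over clusters above background and 0 with only the 8 neutrophil arrays; leaving out single arrays gave 0 to 2. The count called in both effects became 6 after median centring, 7 over clusters with 1 symbol, 2 after quantile normalization, 2 with the trended robust variance, 0 with the 8 neutrophil arrays and 0 when each effect was fitted on its own 4 arrays, and 0 to 2 with single arrays left out. With the replicate number as a block, drug calls numbered 2 and difference calls 1669. The drug effect of Mmp8 was called with the block (limma adjusted p = 0.00117). Fitted on its own 4 arrays, the drug effect had 1 call, which was Mmp8 (limma adjusted p = 0.0274) and not Cpa3. A crossed pairing, added after seeing the data, gave 2 drug calls and 1878 difference calls. Genotype calls ranged from 4023 (without the second Ezh2-/- neutrophil array) to 9580 with single arrays left out, and were 4922 without the first wild-type neutrophil array. Difference calls ranged from 947 to 2996. They fell to 1254 without the second Ezh2-/- neutrophil array, to 1176 and 1099 without a GSK343 array and to 1080 and 947 without a vehicle array. Alternatives that kept every neutrophil and undifferentiated array, or only the 8 neutrophil arrays, gave 1669 to 2577. The correlation of the effects was 0.32 over all clusters and 0.606 over clusters called for genotype, and 0.367 to 0.489 with single arrays left out. The same-sign share of clusters called higher was 85.4% to 89.8% with single arrays left out and 87.8% for protein-coding genes, a setting added after seeing the data. For clusters called lower it was 56.0% to 72.2% and 57.6%. Of 53 named genes whose difference was called, 38 kept the call in every alternative run, 15 lost it in at least 1 and none reversed. Beside those given with their values, calls were lost in 7 alternatives for Hvcn1 and C1qc, in 6 for Phf1, Lin28b and Rrm2, in 5 for Cdkn1a and in 4 for Suz12 and Hoxc4. With the replicate block Mki67, Top2a, Tlr4, Mertk and Il1r2 were not called (limma adjusted p = 0.0575, 0.0853, 0.0728, 0.0924 and 0.0532). The cause of these changes was not tested. The difference could not be fitted on the 4 arrays of an effect alone, and no correlation over drug-called clusters was possible with 1 cluster.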
